A study of Mus musculus with 28 samples.

Results

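The effect of the G9a/GLP inhibitor UNC0638 (UNC) on mouse embryonic fibroblasts reprogrammed in medium without the 3C supplement was examined in 6 RNA-seq libraries, 3 treated with doxycycline alone (DOX) and 3 with DOX and UNC. They were chosen by their treatment label and are 6 of the 28 samples of the series, of which 18 had expression values used here. All fibroblasts came from E13.5–E15.5 embryos and were heterozygous for Rosa26-rtTA, the doxycycline-responsive activator, and for the Oct4-GFP reporter. They also carried an inducible polycistronic reprogramming allele, either OKSM (heterozygous; Oct4, Klf4, Sox2 and Myc) or OKS (homozygous; without Myc), and the labels do not say which library carried which. Cells were plated at 250 per cm2 on irradiated feeder cells in embryonic stem cell medium with 1 µg/ml doxycycline, and UNC was added at 1 µM. The labels give no harvest time for these libraries. They also do not say whether replicates were separate cultures or embryos, so the p-values below measure only the spread between these samples, which may be technical.

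UNC0638 occupies the substrate site of G9a (gene Ehmt2) and GLP (gene Ehmt1), the paired enzymes that place the mono- and dimethyl marks on lysine 9 of histone H3 in euchromatin. Dimethylated H3K9 (H3K9me2) is associated with silent genes. During reprogramming, fibroblasts typically lose mesenchymal genes first, then gain epithelial genes and last switch on their own pluripotency genes. The comparison asks which genes respond when the inhibitor is given during that process with the factors alone.

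The libraries held 10616764 to 12904676 gene-assigned reads in DOX and 14413086 to 18073259 in DOX with UNC, so every treated library was deeper than every control. Values below are the deposited normalised counts, in which the authors divided reads by 1 factor per library. Rescaling by TMM moved none of the 6 by more than 0.02 on the log2 scale. The starting cell type was checked first. In both groups fibroblast genes were abundant, with summed normalised counts over 28 mesenchymal identity genes of 145850 to 152944 in DOX and 158442 to 175860 with UNC. Of 27 pluripotency genes, 9 had 0 reads in all 6 libraries, and Nanog had 2, 6 and 4 reads in DOX and 7, 5 and 10 with UNC. Feeder cells could contribute fibroblast transcripts to every library. In such bulk samples, more cells of a type and more RNA per cell cannot be told apart.

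Log2 of the value plus 1 was compared with limma, and a gene was called at a Benjamini-Hochberg adjusted p below 0.05. UNC raised 82 of the 16138 genes tested (0.508%) and lowered 16 (0.0991%), 98 genes in all (0.607%). Most changes were modest: the 82 raised genes had log2 fold changes of 0.25 to 2.46 with a median of 0.62, and 17 rose at least 2-fold. The 16 lowered genes had log2 fold changes of -0.33 to -1.04 with a median of -0.49. Over all genes tested the median was 0.00, with 8271 above 0. At an unadjusted p below 0.05, 1505 genes (9.33%) passed. None of the 98 called genes had overlapping groups, against 2447 non-overlapping genes (15.2%) among all tested, 1367 of them higher (8.47%) and 1080 lower (6.69%) with UNC.

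These counts depended on single libraries. Without DOX replicates 1, 2 and 3 in turn, limma raised 23, 64 and 43 genes. Without DOX-with-UNC replicates 1, 2 and 3 it raised 103, 28 and 15. The 13 raised genes that passed in all 6 of these fits were Slpi, Myh11, the augurin gene 1500015O10Rik, Ly6a, Lrrc17, Tll1, Gpx3, Heph, Adcy7, Cxcl5, Loxl1, Col5a1 and Col5a2. Plekhh1 was the 1 lowered gene that did. All 6 fits kept the libraries with 3C, and Slpi passed the filter on low values only through those. Of the 62 called genes among those named by rule, 42 lost their call without DOX replicate 1, 44 without DOX-with-UNC replicate 3 and 41 without DOX-with-UNC replicate 2. Of the other called genes described below, the call was kept in 5 of the 6 fits for Ifi27, Serpinf1, Tmem176b and Zfp984, and in 4 for Lmod1 and Tgfbi. It was kept in 3 for Cnn1, Myl9, Timp3, Stmn2 and Slc43a2. In 2 it was kept for Fabp4, Hhipl1, Jph2, Msln, Acta1, Klk8, Gbp2, Mmp19, Gpnmb, Ptprn, Col8a1, Acan, Tuba4a, Fhl2, Mmp2, Tgfb3, Podxl, Cryz, Ubqln2 and Pmm1. In 1 it was kept for C920009B18Rik, Gdf3, Cck, Mylk, Bmp1, Sparc and Gatad2b. No left-out fit kept Hapln3, Spp1, Col15a1, Colgalt2, Lrif1, Tmem229b or Nat8l. By tool, edgeR called 63 of the 82 raised genes and all 16 lowered ones, and DESeq2 called 72 and 15. Of the genes described, Fabp4, Gdf3, Cck, Gbp2, Mmp19, Gpnmb, Hapln3, Acan, Spp1 and Tuba4a did not pass in edgeR, and Slpi, Gdf3, Mmp19, Gpnmb and Hapln3 did not pass in DESeq2. The main limma fit also drew its estimate of the spread from libraries with 3C. Limma on the 6 libraries alone called 46 of the 82 raised and 10 of the 16 lowered genes. Among raised genes described, it did not call Slpi, Fabp4, Hhipl1, Jph2, Gdf3, Cck, Gbp2, Mylk, Mmp19 or Gpnmb. Nor did it call Hapln3, Col8a1, Acan, Tuba4a, Mmp2, Bmp1 or Sparc. Among lowered ones it did not call Colgalt2, Lrif1 or Slc43a2.

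**Figure D1:**
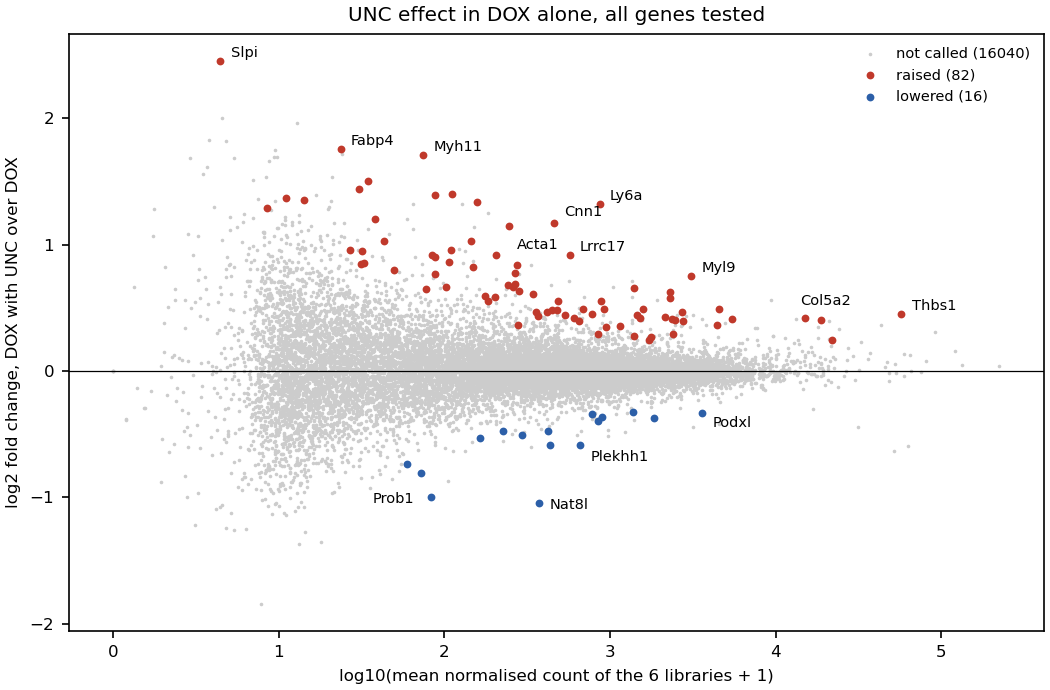
Each point is 1 of the 16138 genes tested, with the log10 of its mean normalised count plus 1 over the 6 libraries on the horizontal axis and the log2 fold change of DOX with UNC over DOX on the vertical axis. The 82 raised genes (red) reach 2.46, and the 16 lowered genes (blue) reach -1.04.

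Among the 36 gene lists, that of smooth muscle contractile genes held the most raised genes. Of its 21 tested members, 5 rose, none fell and 17 had a fold change above 0, with a median log2 fold change of 0.34. The 5 were Myh11, Cnn1, Mylk, Lmod1 and Myl9. Of all 16138 genes tested, 0.508% rose and 8271 were above 0. The lists were written with earlier results of these data known, so the rank of a list is not independent of these values. Myh11, the smooth muscle myosin heavy chain (ENSMUSG00000018830.10, mm10 chr16:14194527-14292188), stood at 29.4, 32.4 and 38.1 normalised counts in DOX and at 87.1, 145 and 108 with UNC. The lowest treated library was more than 2-fold above the highest control. The log2 fold change was 1.71 ± 0.26 (SE; limma adjusted p = 0.00542), and all 6 left-out fits kept the call. Lmod1, an actin filament nucleator of smooth muscle (ENSMUSG00000048096.7, mm10 chr1:135324813-135368065), was measured at 121, 129.7 and 171 in DOX and at 236, 259.8 and 303 with UNC. All treated libraries lay above all controls, with a log2 fold change of 0.92 ± 0.15 (limma adjusted p = 0.00732), and the call was lost without DOX replicate 1 and without DOX-with-UNC replicate 3.

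Further members of the list encode regulators of myosin. Myl9, the regulatory light chain of smooth muscle and non-muscle myosin (ENSMUSG00000067818.6, mm10 chr2:156775408-156781657), was the most abundant of the 5 raised genes, at 2030.5, 2479 and 2381 in DOX and 3206, 4341 and 4084 with UNC. Its log2 fold change was 0.75 ± 0.12 (limma adjusted p = 0.00873). Mylk encodes the kinase that phosphorylates that light chain, and its values were 89.5, 61.2 and 67.4 in DOX and 178, 103 and 151 with UNC. Mylk sat at the threshold (0.96 ± 0.21, limma adjusted p = 0.0497). Cnn1, calponin, which binds actin and restrains myosin, was measured at 202, 289 and 354 in DOX and 471, 696 and 735 with UNC, and both groups spread widely. The 16 other tested members did not pass. Among them Acta2, the smooth muscle actin, had a log2 fold change of 0.37 ± 0.10 (limma adjusted p = 0.117) and Actg2 of 0.56 (adjusted p = 0.0711). Des, the muscle intermediate filament desmin, was at 0.85 (adjusted p = 0.347), and Rgs5 and Notch3 were at -0.15 and -0.07. Without DOX replicate 1 or DOX-with-UNC replicate 3, 1 member of the list was raised, and without DOX-with-UNC replicate 1, 8 were.

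In striated muscle genes, 2 of 13 tested rose, against 0.508% of all genes tested. Acta1, the skeletal muscle actin (ENSMUSG00000031972.5, mm10 chr8:123891758-123894775), had 129, 165 and 157 normalised counts in DOX and 245, 364 and 408 with UNC. The groups were well apart, but the call (1.15 ± 0.21, limma adjusted p = 0.0165) was kept in 2 of the 6 left-out fits. Jph2, which ties the sarcoplasmic reticulum to the surface membrane, stood at 52.7, 39.6 and 93.7 in DOX and 123, 145 and 212 with UNC, with DOX replicate 3 close to the lowest treated library. The list as a whole was barely expressed: 15 of its 28 members were too low to test. In the list of serum response factor targets and actin cytoskeleton genes, 1 of 21 rose, with a median log2 fold change of 0.13. It was Fhl2, a LIM-domain cofactor (462, 473 and 416 in DOX, 570.5, 593 and 674 with UNC), while Srf itself had a log2 fold change of 0.03.

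Many contractile genes are controlled through the CArG box, the motif bound by serum response factor. The promoters of the raised genes were therefore read from the RefSeq table (GRCm38.p6, the same assembly as mm10). It held a promoter for 56 of the 82 raised and 9 of the 16 lowered genes, too few for a comparison of motif shares between called and other genes, which is void. This holds for the CArG box and for the other motifs searched, TGANTCA (AP-1), GGAATG (TEAD) and TATAAA. A CArG box was found in the windows of Acta1, Myl9, Fhl2 and Glipr2, from 250 bases before to 50 bases after the start, searched on both strands. As a description of the motif itself, 144 of the 10526 windows of all tested genes (1.37%) held one. The Acta1, Myl9 and Fhl2 promoters are shown because these genes belong to the muscle and actin lists. They say nothing of how often raised genes carry the box. Each is the 250 bases before 1 transcript start per gene in that table, 5′ to 3′ on the gene's strand, with the CArG box in capitals. The windows lie at chr8:123894776-123895025 (minus strand), chr2:156775214-156775463 (plus strand) and chr1:43196762-43197011 (minus strand). The Acta1 window adjoins the gene span. The starts used for Myl9 and Fhl2 lie inside their spans, chr2:156775408-156781657 and chr1:43123071-43198343.
Acta1: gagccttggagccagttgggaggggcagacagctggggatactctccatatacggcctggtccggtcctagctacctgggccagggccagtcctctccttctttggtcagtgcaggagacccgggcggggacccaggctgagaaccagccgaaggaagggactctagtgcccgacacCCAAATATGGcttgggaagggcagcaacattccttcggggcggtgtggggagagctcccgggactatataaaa
Myl9: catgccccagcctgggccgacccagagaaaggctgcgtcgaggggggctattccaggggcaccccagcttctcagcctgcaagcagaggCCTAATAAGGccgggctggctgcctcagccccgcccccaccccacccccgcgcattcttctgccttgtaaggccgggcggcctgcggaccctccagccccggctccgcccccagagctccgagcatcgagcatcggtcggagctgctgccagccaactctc
Fhl2: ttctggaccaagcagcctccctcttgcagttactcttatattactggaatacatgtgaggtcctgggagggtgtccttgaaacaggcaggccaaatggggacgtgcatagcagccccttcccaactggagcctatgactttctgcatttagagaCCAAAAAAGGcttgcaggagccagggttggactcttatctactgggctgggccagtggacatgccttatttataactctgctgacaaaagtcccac
The box starts 73 bases before the start in Acta1, 161 in Myl9 and 96 in Fhl2. No CArG box was present in the windows of Cnn1, Mylk, Lmod1 and Jph2, and Myh11 had no entry. The Mylk window (chr16:34784700-34784949) lies well inside the gene span (chr16:34745199-35002436), so the beginning of that span was not searched. The starts used for Cnn1 and Jph2 also lie inside their spans. Absence of a box holds for these windows only. A match describes letters in 1 window and does not show binding.

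**Figure D2:**
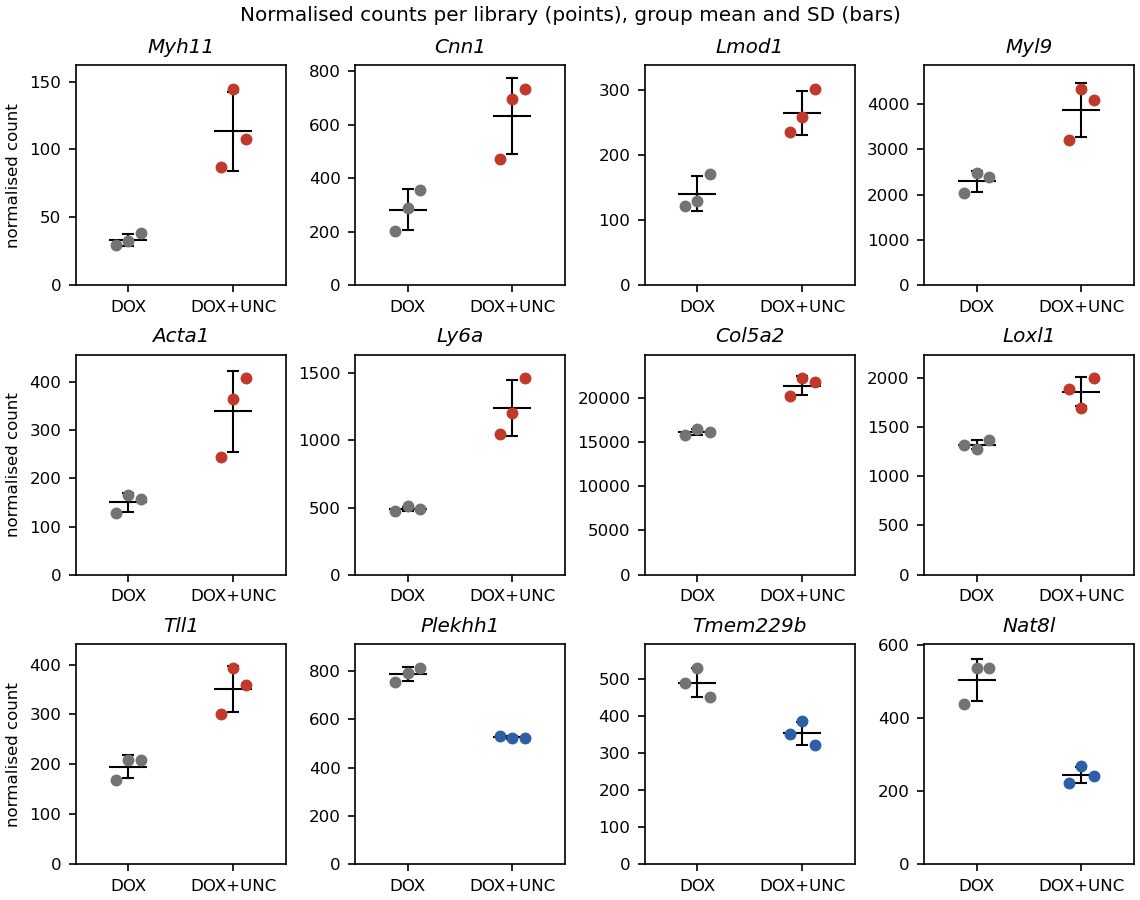
Normalised counts of 12 called genes in each of the 3 DOX and 3 DOX-with-UNC libraries (points), with the group mean as a horizontal bar and the SD as a vertical one, each panel on its own axis from 0. In all 12 panels the groups do not overlap, and Plekhh1, Tmem229b and Nat8l are lower with UNC.

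Extracellular matrix genes formed the second group. Of 25 fibrillar and network collagens, all of them tested, 4 rose and none fell, 24 were above 0 and the median log2 fold change was 0.32. The 4 were Col5a1, Col5a2, Col8a1 and Col15a1. Of all genes tested 0.508% rose, and this list too was written with earlier results known. Col5a2 encodes a chain of type V collagen, which sets the diameter of type I fibrils (ENSMUSG00000026042.16, mm10 chr1:45374331-45503282). It stood at 15780.4, 16428 and 16073 in DOX and 20165, 22193 and 21727 with UNC. Its increase was small and tight (0.41 ± 0.05, limma adjusted p = 0.00149, kept in all 6 left-out fits). The partner chain Col5a1 had 11788, 13627 and 13085 in DOX and 16101, 17963 and 17463 with UNC, a log2 fold change of 0.42 ± 0.06 (limma adjusted p = 0.00347). The type I chains Col1a1 (0.33, adjusted p = 0.0878) and Col1a2 (0.31, adjusted p = 0.0629) did not pass. Without DOX replicate 1, or DOX-with-UNC replicate 2 or 3, the number of raised collagens was 2. The summed normalised counts of the list were 234501 to 251353 in DOX and 282881 to 303448 with UNC, without overlap. Sums of many other lists did not overlap either.

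Enzymes that mature the matrix were also among the raised genes. Loxl1, a lysyl oxidase that cross-links elastin and collagen (mm10 chr9:58287723-58313212), had 1318, 1275 and 1371 normalised counts in DOX and 1887, 1699 and 1997 with UNC. That is a log2 fold change of 0.49 ± 0.07 (limma adjusted p = 0.00305). Tll1 and Bmp1 encode related proteases that trim procollagen. Tll1 was at 169, 209 and 208 in DOX and 301, 393 and 359.7 with UNC, with no overlap (0.84 ± 0.12, limma adjusted p = 0.00347), and Bmp1 changed less (0.27 ± 0.06, limma adjusted p = 0.0366, kept in 1 of 6). In the list of 21 collagen processing genes that holds Loxl1 and Bmp1, 2 rose and 1 fell, against 0.508% and 0.0991% of all genes tested. The one that fell was Colgalt2, a collagen galactosyltransferase, from 103, 78.1 and 92.2 in DOX to 55.5, 51.5 and 47.3 with UNC. No left-out fit kept that call, but edgeR (adjusted p = 0.026) and DESeq2 (0.0359) made it. Of 25 elastic fibre and proteoglycan genes, 1 rose, the cartilage proteoglycan gene Acan (0.65 ± 0.14, limma adjusted p = 0.0336), with a list median of 0.28. Hapln3, which encodes a link protein that joins proteoglycans to hyaluronan, lies 1.93 kb from Acan and had a log2 fold change of 0.85 ± 0.18 (limma adjusted p = 0.0336). That call was lost in all 6 left-out fits (adjusted p 0.0541 to 0.148), in edgeR (0.0655) and in DESeq2 (0.182).

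Beside 0.508% raised of all genes tested, the TGF-beta response list had 3 raised of 26 tested and none lowered, with a median of 0.11. They were Tgfb3, a ligand of the family, Tgfbi, a secreted matrix protein, and Timp3, an inhibitor of metalloproteases bound to the matrix. Timp3 was at 4261, 5046 and 4747 in DOX and 5608, 6741 and 6315 with UNC, and the lowest treated library was above the highest control (0.41 ± 0.07, limma adjusted p = 0.00936). Without DOX replicate 1 or DOX-with-UNC replicate 3, 1 of these genes was raised, without DOX-with-UNC replicate 2 none was, and without DOX-with-UNC replicate 1, 4 were. Serpins and other secreted protease inhibitors had 3 raised genes of 21 tested, Slpi, Serpinf1 and Timp3. In that list 20 were above 0, against 8271 of all 16138 genes tested. Serpinf1, the anti-angiogenic pigment epithelium-derived factor, had 2235, 2104 and 2029 normalised counts in DOX and 2802, 2667 and 2978 with UNC (0.41 ± 0.07, limma adjusted p = 0.00822).

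The highest fold change of all called genes, that of Slpi, rested on very few reads. Slpi encodes a secreted leukocyte protease inhibitor and had 0, 1 and 0 reads in DOX and 6, 9 and 5 with UNC. The ratio of pooled reads per depth was 14.6 with a 95% exact interval of 2.33 to 603 for counting error alone. It passed the filter on low values through libraries with 3C, where it was far more abundant, and its adjusted p was 0.00231 in limma, 0.0498 in edgeR and 0.127 in DESeq2. Limma on the 6 libraries alone gave an adjusted p of 0.12. Fabp4, a fatty acid carrier of adipocytes, stood at 14.7, 6.005 and 8.79 normalised counts in DOX and 24.8, 29.6 and 51.8 with UNC. Its call was kept in 2 of 6 left-out fits, and no other adipocyte gene of the 10 tested passed. Msln, a mesothelial surface protein, was the 1 raised gene of 11 in its list (65.0, 79.3 and 123 in DOX, 178, 210.4 and 279 with UNC). The list median was 0.43, and 0.508% of all genes tested rose.

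Of 10 bone and cartilage genes 2 rose, against 0.508% of all genes tested. They were Acan and the phosphoprotein gene Spp1 (0.56 ± 0.12, limma adjusted p = 0.0467). Spp1 lost its call in all 6 left-out fits (adjusted p 0.0665 to 0.206) and in edgeR (0.0681). It passed in DESeq2 (0.00464), in limma on the 6 libraries alone (0.0145) and in limma with replicate number as a block (0.000471). No gene of the bone and cartilage list was raised without DOX replicate 1 or 3 or without DOX-with-UNC replicate 2 or 3. Of 23 lysosome genes 1 rose, Gpnmb, which did not pass in edgeR (adjusted p = 0.0819) or DESeq2 (0.0973).

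Several raised genes belonged to none of these groups. Ly6a (Sca-1), a surface antigen of mesenchymal and blood progenitors (mm10 chr15:74994877-74998031), had 477, 508 and 486 normalised counts in DOX and 1048, 1207 and 1462 with UNC. It had the smallest adjusted p of the comparison (1.32 ± 0.09, limma adjusted p = 7.03e-07). It was the 1 raised gene of 5 tested in its family, against 0.508% of all genes tested. The augurin gene 1500015O10Rik, which encodes a secreted peptide precursor, showed very little spread. Its values were 51.5, 45.6 and 45.4 in DOX and 132, 121 and 128 with UNC (1.40 ± 0.20, limma adjusted p = 0.0038). Lrrc17, a secreted leucine-rich repeat protein, was at 405, 347 and 430.5 in DOX and 782, 651 and 799 with UNC, all treated libraries being more than 1.5-fold above all controls. Gpx3, the extracellular glutathione peroxidase (190.1, 203 and 196 in DOX, 313, 312 and 391 with UNC), was the 1 raised gene of 22 oxidant defence genes. Heph, a copper-dependent ferroxidase, and Adcy7, an adenylyl cyclase, rose by similar amounts (0.69 ± 0.10 and 0.67 ± 0.10, limma adjusted p of 0.00391 and 0.00423). Hhipl1, C920009B18Rik, Klk8, Cck and Mmp19 also rose, by 0.96 to 1.50 on the log2 scale, and kept their call in 1 or 2 left-out fits each.

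The share of all tested genes that rose, 0.508%, is the background for the immune lists. Of 22 interferon and antigen presentation genes 2 rose, Ifi27 (184, 173 and 201 in DOX, 289, 295 and 309 with UNC; 0.68 ± 0.11, limma adjusted p = 0.00816) and the interferon-inducible GTPase gene Gbp2, while 21 were above 0 and the median was 0.28. Of 17 cytokine genes tested, 1 rose, the neutrophil chemokine Cxcl5. It was at 208, 215 and 239 in DOX and 338, 321 and 367 with UNC (0.63 ± 0.09, limma adjusted p = 0.00347). No macrophage gene of 13 tested passed, and the summed values of that list overlapped between groups (153 to 587 in DOX, 146 to 547 with UNC). None of 5 endothelial and 8 erythroid genes passed either. Of 15 neural genes 1 rose, Stmn2, a microtubule regulator of growing axons (0.62 ± 0.11, limma adjusted p = 0.0139).

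**Figure D3:**
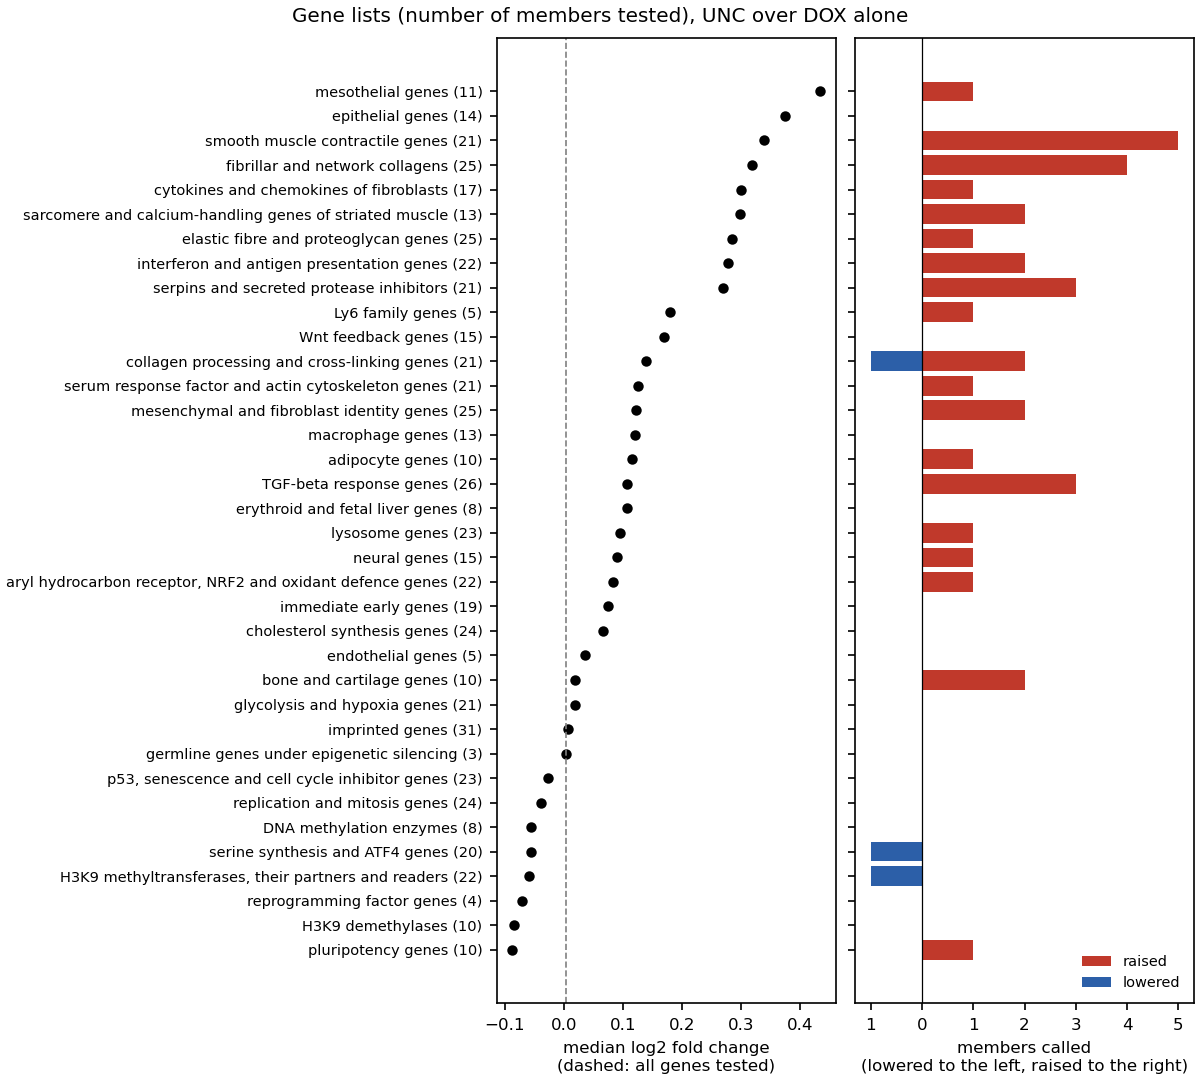
Left, median log2 fold change of DOX with UNC over DOX over the tested members of each gene list (points; number tested in parentheses), with the median of all genes tested as a dashed line. Right, the number of members raised (red, to the right) and lowered (blue, to the left); smooth muscle genes (median 0.34) have 5 raised and collagens (0.32) have 4, while reprogramming factors (-0.07) have none.

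Few genes that mark progress of reprogramming passed. As background, 0.508% of the 16138 genes tested rose, 0.0991% fell and 8271 were above 0. Of 25 mesenchymal identity genes 2 rose, Mmp2 and the matrix protein gene Sparc, and none fell. In that list 20 were above 0, with a median log2 fold change of 0.12. Its summed normalised counts, given above, were higher with UNC without overlap, as were those of many other lists. Mmp2, gelatinase A, was at 1767, 2233 and 2117 in DOX and 2402, 2692 and 3032 with UNC, with DOX replicate 2 nearest to the treated libraries. Thy1, the surface glycoprotein of fibroblasts, had 2154, 2033 and 2289 in DOX and 2884, 2538 and 2931 with UNC and missed the threshold (0.37 ± 0.08, limma adjusted p = 0.0538). It also missed it in edgeR (0.0643) and in all 6 left-out fits (0.0596 to 0.283). Thy1 passed in DESeq2 (0.00413), in limma on the 6 libraries alone (0.0356) and in limma with replicate number as a block (0.000273). The labels do not say that these numbers pair the libraries. Without DOX replicate 1 or 3, or DOX-with-UNC replicate 2 or 3, no gene of the mesenchymal list was raised. None of 14 epithelial genes passed, with 8 above 0 and a median of 0.37, Cdh1 (E-cadherin) being at 72.3, 69.7 and 73.2 in DOX and 72.6, 66.9 and 51.8 with UNC. Summed normalised counts of the epithelial list overlapped, at 1593 to 1851 in DOX and 1846 to 2507 with UNC. That median includes genes with few reads, such as Epcam, with 4, 1 and 1 reads in DOX and 1, 2 and 1 with UNC. Epcam entered the fit through libraries with 3C. Of 10 tested pluripotency genes 1 rose, Gdf3, a TGF-beta family ligand of stem cells, from 3.68, 3.60 and 4.39 normalised counts to 9.39, 12.1 and 11.6. Gdf3 reached a value of 10 in 2 of these 6 libraries, so it entered the fit through the libraries with 3C. It did not pass in edgeR (adjusted p = 0.159) or DESeq2 (0.346), and 9 members of the list remained at 0 reads.

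The factor transcripts and the targets of the drug did not pass the test. Factor reads combine transgenic and endogenous copies, for Myc only in libraries that carried OKSM. Pou5f1 was at 3499, 3556 and 3568 normalised counts in DOX and 3421, 3507 and 3286 with UNC, with overlapping groups. Sox2, Klf4 and Myc had log2 fold changes of -0.08 ± 0.07, -0.07 ± 0.05 and -0.07 ± 0.05, and none of the 4 passed. The groups overlapped for Sox2 and Myc but not for Klf4, which was at 6193, 6504 and 6317 in DOX and 6021, 6162 and 5878 with UNC. Summed over the 4 factors, normalised counts were 18951 to 19722 in DOX and 17677 to 18875 with UNC, lower without overlap. Ehmt2 had 4131, 4528 and 4028 in DOX and 4211, 4267 and 4152 with UNC, and Ehmt1 had 1966, 1905 and 1859.6 in DOX and 1952, 1917 and 1922 with UNC. UNC blocks enzyme activity, so transcript levels do not report whether the drug acted. Of 22 H3K9 methyltransferases, partners and readers 1 fell, against 0.0991% of all genes tested. It was Lrif1, a partner of heterochromatin protein 1 (194, 189.7 and 198 in DOX, 125, 130.4 and 147 with UNC). No left-out fit kept that call, but edgeR (adjusted p = 0.0228) and DESeq2 (0.0268) made it. None of 10 H3K9 demethylases, 8 DNA methylation enzymes, 31 imprinted genes and 3 tested germline genes passed. The fold change was above 0 for 5 of the 22 methyltransferase genes, 2 of the 10 demethylases and 0 of the 8 DNA methylation enzymes. Summed normalised counts of the demethylases were 14960.1 to 15367 in DOX and 14084 to 14402 with UNC. Those of the DNA methylation enzymes were 18158 to 19343 and 17709 to 18056, and those of the methyltransferases and partners 49057 to 49461 and 47526 to 48169. All 3 sums were lower with UNC without overlap. Sums of many of the 36 lists did not overlap either, those of the smooth muscle, interferon and serpin lists being higher with UNC. Non-overlap of a sum is therefore not particular to these lists, and the sums were not tested. The germline list holds loci known to be silenced by chromatin marks, and 10 of its genes had 0 reads in all 6 libraries. None of 24 replication, 23 p53 and senescence, 24 cholesterol synthesis, 21 glycolysis, 19 immediate early and 15 Wnt feedback genes passed. Of the replication genes 4 were above 0, and their sums, 104393 to 108677 in DOX and 100835 to 103285 with UNC, did not overlap.

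Among the 16 lowered genes Plekhh1 was the most stable. It encodes a pleckstrin and MyTH4 domain protein (ENSMUSG00000060716.7, mm10 chr12:79029163-79081655) and fell from 755, 793 and 813 normalised counts to 531, 522 and 520.3 (-0.58 ± 0.07, limma adjusted p = 0.00149). The treated libraries lay within a narrow band far below the controls. Tmem229b, a membrane protein gene 21.6 kb from Plekhh1 with no tested gene between them, fell too (490.5, 531 and 451 in DOX, 353, 386 and 322 with UNC; -0.47 ± 0.10, limma adjusted p = 0.0475), although no left-out fit kept its call. Nat8l, the synthase of N-acetylaspartate, had the largest decrease, from 439, 537 and 537 to 223, 269 and 240.1 (-1.04 ± 0.21, limma adjusted p = 0.0269). Its call was kept in none of the 6 left-out fits, where the limma adjusted p was 0.0624 to 0.126, but was made by edgeR (0.00239) and DESeq2 (9.63e-09). Zfp984, a zinc-finger protein gene, was at 468, 519 and 574 in DOX and 308, 367 and 366 with UNC (-0.58 ± 0.10, kept in 5 of 6). Smaller decreases were those of Podxl, an anti-adhesive sialomucin, Pmm1, a phosphomannomutase, Cryz, a quinone reductase, Ubqln2, a proteasome shuttle factor, and Gatad2b, a subunit of the NuRD complex. These 5 fell by 0.33 to 0.40 on the log2 scale.

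Called genes were compared for position. Of 97 called genes with a position, 12 (12.4%) lay within 500 kb of another called gene, against 1105 of 14890 tested genes (7.42%) within that distance of a called gene. The 12 form 6 pairs. Besides Plekhh1 with Tmem229b and Acan with Hapln3 these were Tuba4a with Ptprn (25.8 kb), Tmem176b with Gpnmb (191 kb), Gpx3 with Sparc (484 kb) and Serpinf1 with Slc43a2 (107 kb). In the last pair the directions were opposite, since Slc43a2, an amino acid transporter gene, fell. Whether reads were counted by strand is not given, so reads of close or overlapping genes cannot be told apart with certainty.

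Genes too low for the fit were counted by their reads. 177 genes had at least 1 read in every DOX-with-UNC library and 0 in every DOX library, and 36 had the reverse. None of the 177 reached 3 reads in each treated library, and the highest count was 9. The treated libraries held 50215423 reads together and the controls 36171536, and the part of depth in these numbers was not tested. The 4 genes with most reads, chosen after their values were seen, were Asb2 (1, 6 and 8 reads with UNC), Gm21972 (1, 2 and 9), Arr3 (6, 2 and 3) and Tfr2 (5, 5 and 1).

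The same contrast was available in separate libraries reprogrammed with 3C, which is 50 µg/ml ascorbic acid with 3 µM CHIR99021 and 250 nM TGF-b RI Kinase Inhibitor II. It shares no library with the comparison above, although both come from 1 fit with a common error. In 3C, UNC raised 1244 genes (7.71%) and lowered 636 (3.94%). Of the 82 genes raised in DOX alone, 72 (87.8%) were also raised in 3C and none was lowered, 81 had the same sign, and the median log2 fold change was 0.85 there against 0.62. Of the 16 lowered genes 9 (56.3%) were also lowered in 3C and none was raised. The difference between both effects passed for 10 of all genes tested (0.062%), among them none of the 82 raised genes and 1 of the 16 lowered, Slc43a2. Called genes had to exceed the noise in the first contrast, so their size there is a selected value.

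The 10 raised genes not called in 3C were Gstt2, Gdf3, Gpnmb, Hapln3, Stmn2, Fkbp11, Tuba4a, Pcx, Patj and Itpr1, and for none was the difference between media called. Gpnmb, a lysosomal and melanosomal glycoprotein, had log2 fold changes of 0.86 ± 0.16 without 3C and 0.47 ± 0.16 with it (limma adjusted p of 0.0201 and 0.075). Mylk had a larger fold change with 3C, 2.26 ± 0.21, than without it, 0.96 ± 0.21, and Myl9 1.36 ± 0.12 against 0.75 ± 0.12. Neither difference passed. Smooth muscle genes raised by UNC numbered 14 of 21 in 3C and 5 without it, collagens 17 of 25 and 4, and mesenchymal genes 16 of 25 and 2. Control levels differed between media: Myl9 averaged 2297 ± 236 (SD, n = 3) normalised counts in DOX and 315 ± 45.2 in DOX with 3C.

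**Figure D4:**
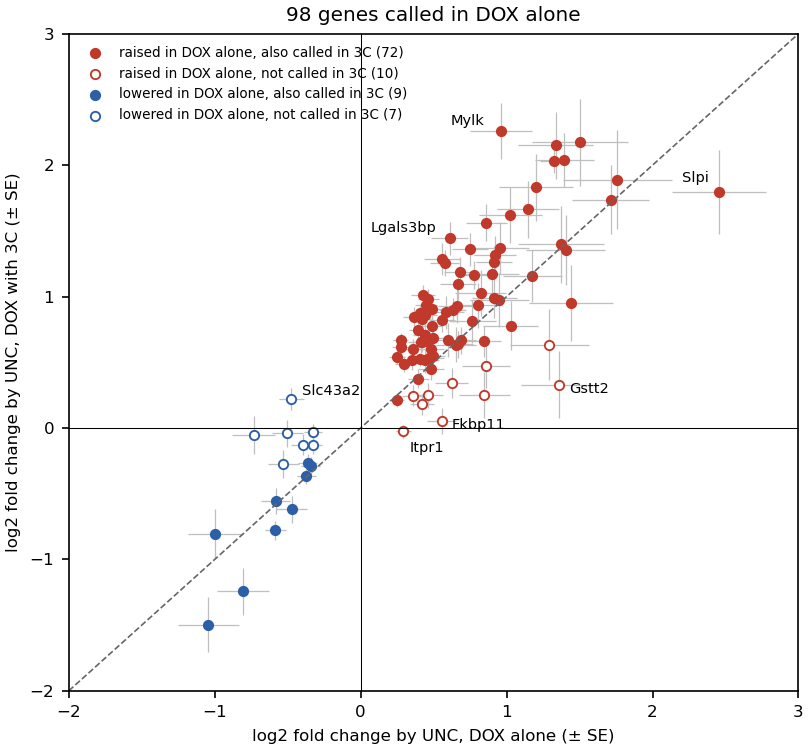
Log2 fold change by UNC without 3C (horizontal axis) and with 3C (vertical axis) for the 98 genes called without 3C (points, filled where also called with 3C, with bars of 1 SE) and the line of equal effects (dashed). Of 82 raised genes (red) 81 lie above 0 on both axes and 60 above the line of equal effects, and Slc43a2, a lowered gene (blue), has -0.48 without and 0.22 with 3C.

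A further set of 6 libraries, from induced pluripotent stem cells (iPSC), allowed the called genes to be looked up in other cells. Their groups were 3 libraries with DMSO and 3 with 1 µM UNC. Their descriptions give UNC for the first 48 hours, whereas the protocol text gives harvest after 48 hours, and the labels give no passage number. In edgeR's quasi-likelihood test on the deposited counts, 229 of 17987 genes (1.27%) were higher in the UNC iPSC than in the DMSO iPSC and 7 (0.0389%) lower, 236 in all (1.31%). Of the 77 raised genes tested there, 27 (35.1%) were higher and none was lower. They included Myh11, Cnn1, Mylk and Myl9, the type V collagen genes Col5a1 and Col5a2, the protease genes Tll1, Bmp1, Mmp2 and Mmp19, and Loxl1, Sparc, Timp3, Serpinf1 and Thbs1. Of the 16 lowered genes tested none passed in either direction.

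The iPSC values of Myl9 and Col5a2 serve as examples. Myl9 stood at 36.8 ± 3.38 CPM (SD, n = 3) in DMSO and 54.8 ± 3.62 in UNC iPSC (log2 fold change 0.58, edgeR adjusted p = 0.00486). Col5a2 stood at 189 ± 31.4 and 331 ± 7.18 CPM (0.81, edgeR adjusted p = 0.00332). Markers of fibroblasts were higher too. Summed CPM of the 28 mesenchymal genes were 1542 to 1830 in DMSO and 2339 to 2535 in UNC iPSC, without overlap. Thy1 was at 26.6 to 37.3 and 49.9 to 57.5 CPM (edgeR adjusted p = 0.0057). Of 24 mesenchymal genes tested there 12 were higher and 0 lower, against 1.27% and 0.0389% of all genes. Sums of the smooth muscle and collagen lists did not overlap either, and the share of all iPSC genes without overlap was not counted. Summed CPM of the 27 pluripotency genes overlapped (10413 to 11361 and 10894 to 11265). The part of fibroblast or feeder RNA in these iPSC differences was not tested. Leaving out the UNC iPSC replicate 1 reduced the 27 shared genes to 15.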

How the data were processed

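Reads were aligned and counted by the authors on mm10 with HTSeq 0.5.4p3, DESeq, TopHat2 2.1.0 and SAMtools 1.8, per the submitters' processing notes. Settings and the use of strand were not given in the sources used here. Libraries were TruSeq stranded total RNA with RiboZero Gold, per the labels' protocols. The deposited reprogramming table holds a signal, read counts divided by 1 factor per library, and all its values were whole multiples of 1 read within 0.01. The iPSC table holds raw counts as deposited. A further 2 columns of the former fit none of the samples listed and stayed out.

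In R 4.3.3, log2 of the value plus 1 was fitted with limma 3.58.1 (mean-variance trend, two-sided) over 12 libraries, 3 in each of 4 reprogramming groups, which share 1 estimate of the spread with 8 residual degrees of freedom. A gene was tested if 3 or more libraries reached a value of 10. The iPSC were fitted with edgeR 4.0.16 (quasi-likelihood, TMM). The alternatives were edgeR and DESeq2 1.42.0 on the recovered reads, other pseudocounts and filters, TMM scaling, a replicate block and leaving out each library. Symbols were found for 54042 of 54109 identifiers. The H3K9me2 samples were not analysed here.

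Members and lists were chosen with earlier results of these data known. Genes were named by rule: the 15 largest changes each way with a mean of at least 20, up to 4 called members per list, those called in every left-out fit, called neighbours within 500 kb, and a set of reprogramming genes. Other names, among them list members that did not pass, Glipr2, Thbs1 and the genes counted as not called in 3C, were chosen after their values were seen.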

Additional observations from a re-analysis of the deposited data

Results flagged for a closer look

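The effect of UNC differed between DOX alone and 3C for a pair of genes reported above, by the test of the difference itself in limma. Pou5f1, whose reads include the transgene, had a log2 fold change of -0.06 in DOX alone and -0.53 in 3C, a difference of -0.47 ± 0.08 (adjusted p = 0.023). Leaving out 1 of the 12 libraries gave an adjusted p of 0.0104 to 0.0832, above 0.05 without DOX replicates 1, 2 or 3, DOX-with-UNC replicate 2, 3C replicates 2 or 3, or 3C-with-UNC replicate 3. DESeq2 gave 1.65e-05 and edgeR 0.0193. Slc43a2, a transporter gene of neutral amino acids, had -0.48 in DOX alone and 0.22 in 3C, a difference of 0.70 ± 0.12 (adjusted p = 0.0372). Leaving out 1 library gave 0.0317 to 0.0969, DESeq2 0.00163 and edgeR 0.0498, and the value was above 0.05 without DOX replicates 1, 2 or 3, DOX-with-UNC replicates 1 or 2, 3C replicate 2, or 3C-with-UNC replicate 3.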

How the results depend on the processing

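No result reversed under any setting run. The counts of raised genes (82), lowered genes (16) and genes called the same way in 3C (81) moved to 127, 41 and 136 with DESeq2. Leaving out 1 library gave 15 to 103 raised, 2 to 43 lowered and 16 to 107 called the same way in 3C, lowest for raised genes without DOX-with-UNC replicate 3. Leaving out 1 iPSC library, with the called genes held as they were, kept 15 to 24 of the 27 genes shared with iPSC. How many stay shared without a reprogramming library is not given. With a replicate block the counts were 315, 94 and 310, and in edgeR with that block, added after seeing the data, 309, 107 and 315. The labels do not say that numbers pair the libraries: deviations of same-numbered libraries correlated at 0.0940 to 0.223 and those of other pairs at -0.194 to -0.0131, each DOX library correlating best with its own number. Deviations from a group mean cancel out within the group, so the negative values are tied to the positive ones and are not separate evidence. The other settings (plus 5, no filter, at least 50, TMM, edgeR, the 6 libraries alone) gave 58 to 85 raised and 11 to 20 lowered. Depth limits low genes, and the treated libraries were deeper. No cause was tested.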
